A study of Mus musculus with 6 samples.

Results

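The H3K56ac peaks around Sox2 and Pou5f1, the genes for 2 core transcription factors of pluripotent cells, were examined in mouse embryonic stem cells (mESCs). A peak was taken if it had a base between 150 kb upstream and 150 kb downstream of either gene, with gene ends from GENCODE M21 on mm10, and 10 of 11106 peaks met this rule, 5 at each gene. The cells were V6.5 mESCs, kept undifferentiated on feeder cells in medium with serum and LIF, and infected with lentivirus carrying either a scrambled shRNA (Scramble) or an shRNA against Sirt6 (Sirt6KD). ChIP-seq, the sequencing of DNA immunoprecipitated with an antibody against H3 acetylated at lysine 56, was run on 2 Scramble and 2 Sirt6KD libraries, with 1 input DNA library of each. The values were the positions of 1 merged set of peaks, whose score was 0 throughout. Peaks were merged where they overlapped, so a width is a joined extent and can exceed that of any peak called in a single library. At a cut-off on enrichment and false discovery rate, the paper lists more peaks for each Sirt6KD library than for each Scramble library. The groups may therefore not weigh equally in the set, although it is not stated whether the set used this cut-off. The set gives no read depth and no value per library, and it does not say from which group a peak came, so Scramble and Sirt6KD cells could not be compared, no value had replicates and no test between groups was possible. The labels do not say whether feeder cells were removed before fixation.

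SOX2 and POU5F1 (also called OCT4) bind DNA side by side on composite SOX-octamer elements and, with NANOG, keep embryonic stem cells pluripotent. Sox2 is a gene with 1 exon inside the long non-coding gene Sox2ot. Its best known enhancers in these cells are SRR2, just downstream of the gene, and the Sox2 control region, far downstream. Pou5f1 is driven by a proximal and a distal enhancer just upstream of its promoter, and its next upstream neighbours are the H2-Q genes, a tandem family of class I major histocompatibility genes. H3K56ac, a mark in the globular core of histone H3, is found at active promoters and enhancers, and SIRT6 is a deacetylase of this residue.

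The sequences below, from GRCm38 (the assembly named mm10), show the stretches on which the motif results turn. All are printed on the plus strand, which is also the strand of both genes, and capitals mark motif matches on either strand. The first holds the match closest to the SOX-octamer composite among the 10 peaks, with 1 mismatch, downstream of Sox2 at chr3:34653907-34654206, and also a KLF and a STAT3 match. The second is a stretch around an exact octamer in a narrow peak, chr3:34668253-34668372. The third is a stretch around an ESRRB match in the peak over 100 kb downstream of Sox2, chr3:34757815-34758114, and also holds a SOX match.
Sox2 downstream: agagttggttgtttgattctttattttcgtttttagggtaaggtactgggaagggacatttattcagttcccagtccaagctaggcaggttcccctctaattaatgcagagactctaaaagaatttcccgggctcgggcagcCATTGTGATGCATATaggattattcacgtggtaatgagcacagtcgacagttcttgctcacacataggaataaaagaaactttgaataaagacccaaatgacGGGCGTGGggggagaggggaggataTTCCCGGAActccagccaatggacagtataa
Sox2 peak 3: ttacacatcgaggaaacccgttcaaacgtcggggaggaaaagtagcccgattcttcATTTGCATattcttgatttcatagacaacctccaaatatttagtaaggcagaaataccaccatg
Sox2 far peak: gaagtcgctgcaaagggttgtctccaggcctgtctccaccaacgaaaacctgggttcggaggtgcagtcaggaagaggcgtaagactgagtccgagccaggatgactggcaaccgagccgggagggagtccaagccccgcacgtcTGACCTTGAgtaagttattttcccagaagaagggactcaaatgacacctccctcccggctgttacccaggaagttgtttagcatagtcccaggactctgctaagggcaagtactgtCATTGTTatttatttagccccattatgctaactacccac
Of the Pou5f1 stretches, the first holds a composite match with 2 mismatches, read on the minus strand, and a KLF match, upstream of the gene at chr17:35503907-35504206. The second is a whole peak, chr17:35485756-35486020, the narrowest of the 10, with an ESRRB match.
Pou5f1 upstream: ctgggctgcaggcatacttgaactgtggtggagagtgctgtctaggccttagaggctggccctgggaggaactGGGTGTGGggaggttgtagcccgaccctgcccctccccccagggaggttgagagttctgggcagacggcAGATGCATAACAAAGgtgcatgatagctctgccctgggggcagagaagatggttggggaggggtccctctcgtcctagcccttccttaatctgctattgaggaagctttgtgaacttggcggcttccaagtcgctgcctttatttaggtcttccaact
Pou5f1 far upstream: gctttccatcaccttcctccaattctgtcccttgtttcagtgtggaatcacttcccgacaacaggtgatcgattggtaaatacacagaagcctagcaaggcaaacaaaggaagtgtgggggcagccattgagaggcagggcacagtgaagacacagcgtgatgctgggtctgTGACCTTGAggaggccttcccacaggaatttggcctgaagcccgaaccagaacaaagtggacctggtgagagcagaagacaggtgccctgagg
The promoters of both genes, 250 bases before to 50 bases after the RefSeq start on GRCm38, are shown because each lay inside the peak at its gene. They are chr3:34649745-34650044 for Sox2, whose RefSeq start lies 410 bp upstream of the GENCODE start, and chr17:35505782-35506081 for Pou5f1, where the 2 starts differ by 14 bp.
Sox2 promoter: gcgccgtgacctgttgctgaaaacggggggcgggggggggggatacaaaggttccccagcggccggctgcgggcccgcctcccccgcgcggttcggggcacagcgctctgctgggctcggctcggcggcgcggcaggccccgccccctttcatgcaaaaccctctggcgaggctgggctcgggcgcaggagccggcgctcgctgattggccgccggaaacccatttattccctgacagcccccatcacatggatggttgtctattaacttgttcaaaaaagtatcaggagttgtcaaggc
Pou5f1 promoter: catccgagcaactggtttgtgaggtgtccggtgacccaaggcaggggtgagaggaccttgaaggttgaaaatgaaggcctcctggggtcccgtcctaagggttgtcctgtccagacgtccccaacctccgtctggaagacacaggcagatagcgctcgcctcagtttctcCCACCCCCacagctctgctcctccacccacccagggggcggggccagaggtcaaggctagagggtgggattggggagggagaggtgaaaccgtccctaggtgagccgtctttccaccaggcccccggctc

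Both genes carried a wide peak over their start, and Sox2 had another wide peak over 100 kb downstream with no counterpart in the Pou5f1 window. In the Sox2 window, the 5 peaks were 9909, 1118, 588, 836 and 6289 bp wide, in order along the chromosome. In the Pou5f1 window, they were 474, 265, 6152, 941 and 500 bp wide. A width of at least 3 kb was thus reached by 2 of the 5 Sox2 peaks and 1 of the 5 Pou5f1 peaks, against 6.83% of all peaks. Peaks with a midpoint over 3 kb from the start of every protein-coding transcript, here called distal, were 4 of 5 at Sox2 and 3 of 5 at Pou5f1, against 30.5% of all peaks. Sox2 is the 1 protein-coding gene with a start in its window. Any peak there with a midpoint over 3 kb from that start is therefore distal by definition. The Sox2 peaks all lay at or downstream of the gene, while the Pou5f1 peaks lay on both sides, with 2 upstream and 2 downstream of the one at the gene.

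**Figure D1:**
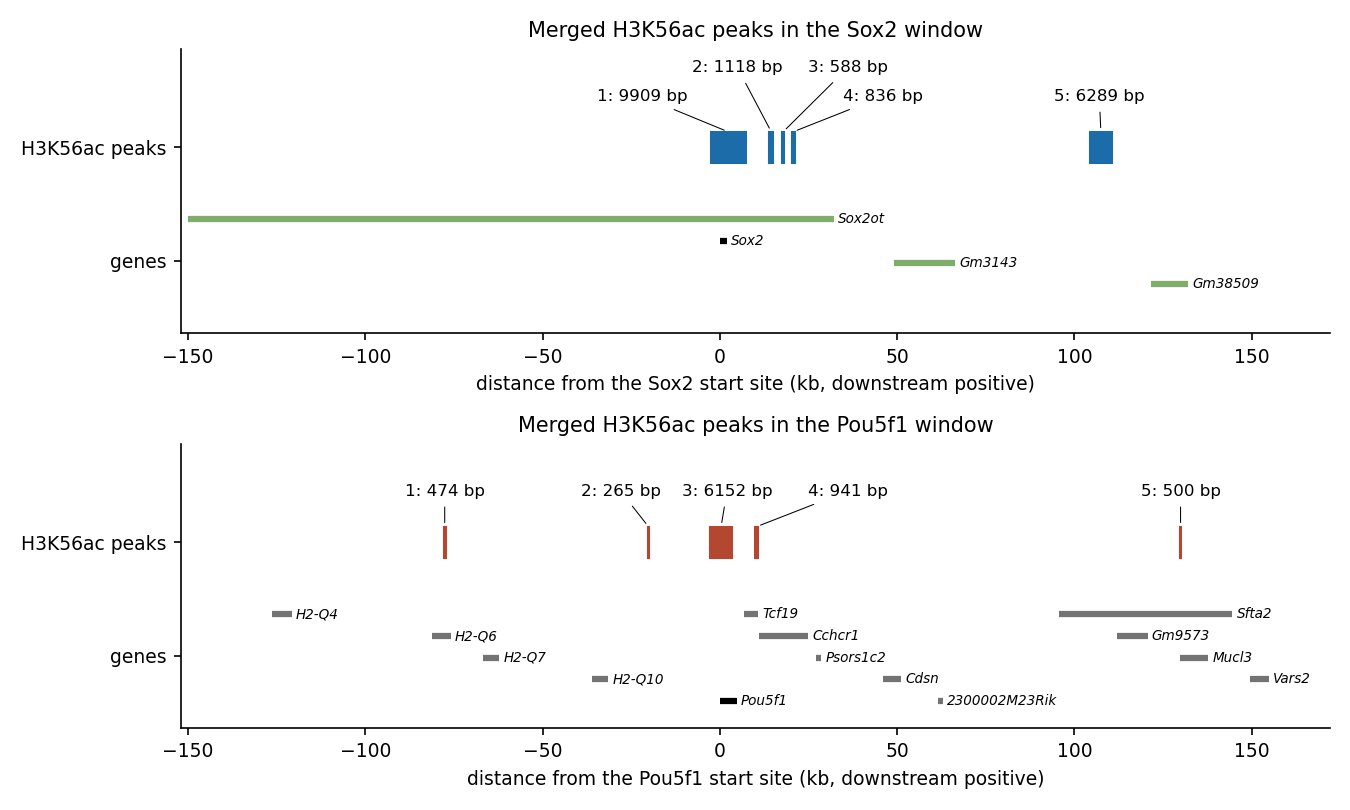
Merged H3K56ac peaks (bars, numbered along the chromosome, with their widths in bp) and annotated genes in the Sox2 window (top) and the Pou5f1 window (bottom), against the distance from the start of each gene in kb, downstream positive. Black marks Sox2 and Pou5f1, grey other protein-coding genes and green long non-coding genes, of which only Sox2ot, Gm3143 and Gm38509 are drawn. All 5 Sox2 peaks lie at or downstream of the gene, and 2 of the 5 Pou5f1 peaks lie upstream.

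At Sox2 (ENSMUSG00000074637.7, chr3:34650405-34652461, plus strand), peak 1 contained the whole gene. It ran over chr3:34647780-34657688, from 2625 bp before the Sox2 start to 5227 bp beyond the end of the gene, which itself is 2057 bp long. At 9909 bp it ranked 6 of 11106 by width, and 99.9% of all peaks were narrower. More of it therefore lay downstream of the gene than upstream, and its midpoint fell 2329 bp after the Sox2 start, in an intron of Sox2ot. The same peak covered the start of Gm27611, a non-coding RNA annotated 2773 bp downstream, and reached a start of Sox2ot at 5631 bp downstream, so it cannot be assigned to the Sox2 promoter alone. The stretch downstream of Sox2 printed above, 3502 to 3801 bp after the start, lay within it.

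Peaks 2, 3 and 4 lay close together in introns of Sox2ot, with midpoints 14491, 17856 and 20691 bp downstream of the Sox2 start. They were chr3:34664338-34665455, chr3:34667968-34668555 and chr3:34670679-34671514. Their widths were ordinary for the set: 57.9%, 26.4% and 45.5% of all peaks were narrower. The gaps between them were short, 2512 and 2123 bp, and only 6.82% and 5.74% of the 11085 gaps between neighbouring peaks were shorter. The midpoint of peak 2 was 347 bp from a start of Sox2ot, and its edge 49 bp from that of Gm42693, so with the starts of non-coding genes counted too only 3 Sox2 peaks remained distal. Peaks 3 and 4 were 3018 and 5853 bp from the nearest start of any gene, again one of Sox2ot.

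Peak 5 was the only peak between 95 and 120 kb downstream of the Sox2 start, the interval taken for the Sox2 control region, and covered 25.2% of it. It spanned chr3:34754713-34761001, from 104308 to 110596 bp downstream of the start. With 6289 bp it ranked 52 among all peaks and 23 among the 3382 distal peaks, of which 99.3% were narrower and 5.12% were at least 3 kb wide. It overlapped no annotated gene. Its neighbours were Gm3143, a long non-coding RNA with a start 38051 bp before it, and Gm38509, another with its start 11074 bp after it. Between peaks 4 and 5 were 83198 bp without a peak, a gap longer than 61.6% of all gaps.

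Outside the window, the Sox2 peaks stood far from any other. The last peak before peak 1 was 566490 bp away, and the first after peak 5 was 958771 bp away. Of all gaps, 90.3% and 94.3% were shorter than these 2. The region is also poor in genes: the last protein-coding gene before Sox2, Dnajc19, ended 569.084 kb before the Sox2 start, and the next, Atp11b, began 993.105 kb beyond peak 5. Sox2 was the 1 protein-coding gene with a start in the window, beside 12 non-coding genes, of which 3 (Sox2ot, Gm27611 and Gm42693) had a peak base at most 1 kb from a start and 9 had none.

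At Pou5f1 (ENSMUSG00000024406.16, chr17:35506018-35510772, plus strand), peak 3 spanned the start. It ran over chr17:35503286-35509437, from 2732 bp before the start to 3419 bp after it, and so covered 71.9% of the gene and ended 1335 bp before the gene did. At 6152 bp it ranked 59, and 99.5% of all peaks were narrower. All 6 annotated starts of Pou5f1 lay within 1 kb of its bases. Unlike the peak at Sox2, it was placed almost evenly about the start, with its midpoint 343 bp downstream. Its upstream flank took in the stretch printed above, 2111 to 1812 bp before the start. The peak also overlapped the antisense gene Gm19553, whose own start lay 1114 bp beyond it.

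Upstream of Pou5f1, peaks 1 and 2 were narrow. Peak 2, at chr17:35485756-35486020, was 265 bp wide, a width under which only 4.87% of all peaks fell. Its midpoint was 20130 bp upstream of the Pou5f1 start, between genes, and 15791 bp from the nearest protein-coding start, that of H2-Q10. Peak 1, at chr17:35428183-35428656, was 474 bp wide, and 16.8% of all peaks were narrower. It lay 77599 bp upstream of the Pou5f1 start in an intron of H2-Q6, 3542 bp from the start of that gene. Between peak 2 and the peak at Pou5f1 were 17265 bp without a peak, so the enhancers just upstream of the gene had no peak apart from the flank of peak 3.

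Downstream of Pou5f1, peak 4 (chr17:35515927-35516867, 941 bp) lay at the divergent starts of Tcf19 and Cchcr1. Tcf19 encodes a protein with a forkhead-associated domain, and Cchcr1 a coiled-coil protein. The midpoint was 150 bp from the nearest start of Tcf19, and the nearest start of Cchcr1 was 233 bp from the edge of the peak. The peak thus lay nearer to starts of 2 other genes than to the Pou5f1 start, which was 10379 bp from its midpoint. Which gene it acts on was not tested. Peak 5 (chr17:35635693-35636192, 500 bp) was 129924 bp downstream, in an exon within the annotated bodies of Sfta2 and Mucl3, and 7753 bp from the start of Mucl3. Of the 14 protein-coding genes with a start in the window, 3 (Pou5f1, Tcf19 and Cchcr1) had a peak base at most 1 kb from a start and 11 did not, a share to be read beside 35.7% of all 21938 protein-coding genes. None of the 8 non-coding genes of the window had one.

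**Figure D2:**
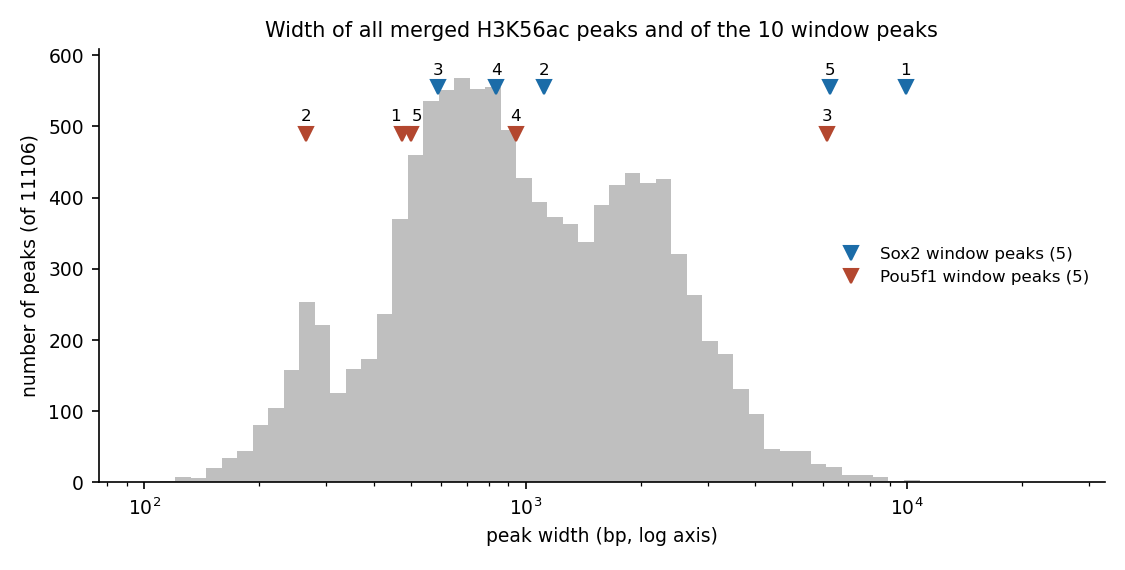
Histogram of the widths of all 11106 merged peaks (grey, number of peaks against width in bp on a log axis), with triangles for the 5 Sox2 window peaks (blue, upper row) and the 5 Pou5f1 window peaks (red, lower row), numbered along the chromosome. Sox2 peaks 1 and 5 (9909 and 6289 bp) and Pou5f1 peak 3 (6152 bp) lie in the upper tail, and the other 7 lie between 265 and 1118 bp.

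The upstream side of Pou5f1 differs from the other 3 sides in how much of its sequence has an exact copy elsewhere. Because only reads with 1 reportable location had been kept, the share of 75-base stretches that occur elsewhere on the assembled chromosomes was computed. Only exact copies, on either strand, were counted. Near copies were not, so a low share does not show that reads could be placed. The sources give the read length as 75 bases in one place and 80 in another, and with 80-base stretches, tried after the data were seen, the share upstream of the Pou5f1 start was 43.3%. With 75 bases it was 44.7% upstream of the Pou5f1 start and 2.92% downstream, against 3.70% upstream and 1.38% downstream of the Sox2 start. From the first to the last base of the H2-Q genes the share was 54.0%. Within 1 kb of a start it was 46.1% for H2-Q6 and 39.0% for H2-Q7, but 2.39% for H2-Q4 and 0 of 1927 stretches for H2-Q10. Peak 1, inside H2-Q6, had 29.5% shared stretches, while peak 2 had 0 of 191 and peak 3 had 1.89%. Among the Sox2 peaks only peak 5 had any, with 0.756%. The part of shared sequence in the number of peaks upstream of Pou5f1 was not tested.

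**Figure D3:**
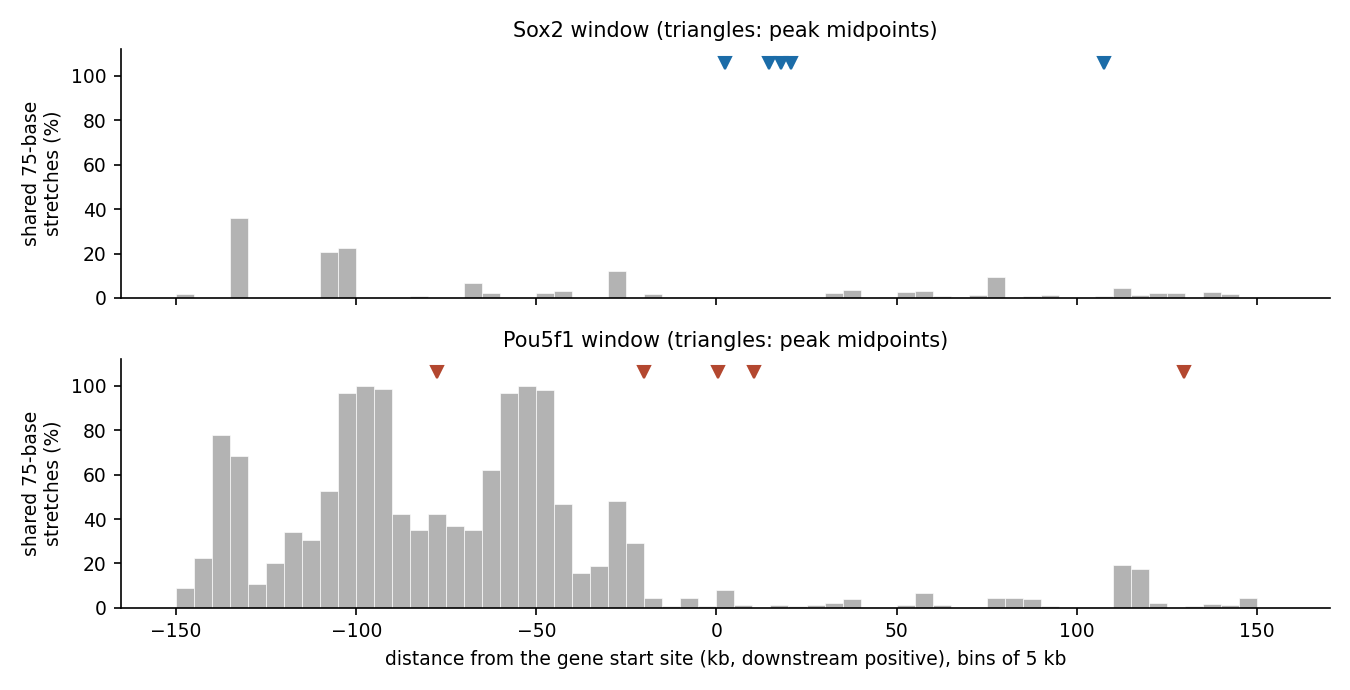
Percentage of 75-base stretches with an exact copy elsewhere on the assembled chromosomes, for the Sox2 window (top) and the Pou5f1 window (bottom). Bins are of 5 kb, against the distance from the gene start in kb (downstream positive). Triangles mark the midpoints of the 5 peaks in each window. Upstream of the Pou5f1 start 44.7% of stretches were shared, and some bins among the H2-Q genes approach 100%, while the bins around the gene and those of the Sox2 window are mostly low.

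Set beside the windows of all 21938 protein-coding genes, the 2 loci were ordinary in number of peaks, and Sox2 was high in the share of bases covered. A gene window held a median of 3 peaks (quartiles 1 and 6), and 22.9% held none. The 5 peaks at Sox2 and at Pou5f1 were more than in 67.4% of windows and as many as in 7.12%. Peaks covered 6.20% of the Sox2 window, which was more than in 96.6% of windows, and 2.73% of the Pou5f1 window, more than in 79.9%. The median window was covered at 0.886%. Single peaks made most of this cover, since the peak at the gene gave 52.9% of the summed width at Sox2 (18740 bp) and 73.8% at Pou5f1 (8332 bp). Windows of neighbouring genes overlap, and longer genes have longer windows, so these shares are descriptions and not tests. Cover is relative to the whole window, shared sequence included. Of 75-base stretches, 23.5% were shared in the Pou5f1 window and 2.53% in the Sox2 window, and other windows were not scored for this.

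**Figure D4:**
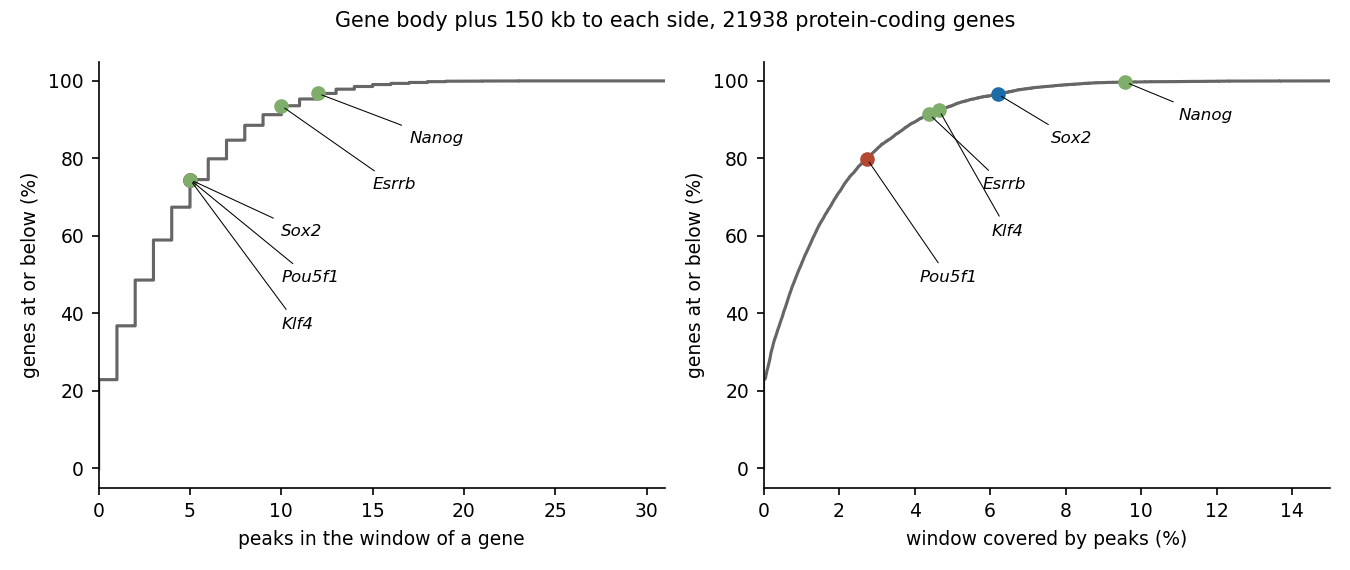
Percentage of 21938 protein-coding genes at or below a given value (line), for the number of peaks in the window of the gene (left) and the percentage of the window covered by peaks (right), with points for Sox2 (blue), Pou5f1 (red) and Nanog, Esrrb and Klf4 (green). On the left, Sox2, Pou5f1 and Klf4 share 1 point at 5 peaks. On the right, Sox2 (6.20%) lies between Klf4 (4.65%) and Nanog (9.59%), and Pou5f1 (2.73%) is the lowest of the 5.

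Among the other core pluripotency genes, Nanog had the richest window, with 12 peaks and 9.59% covered. Esrrb, which encodes an orphan nuclear receptor, had 10 peaks and 4.39% covered in a longer window of 460.512 kb. Klf4, a zinc finger factor used in reprogramming, had 5 peaks and 4.65% covered. Pou5f1 therefore had the lowest cover of the 5 loci, while Sox2 had the second highest. The part of shared sequence in this order was not tested. Among distal peaks with no base within 1 kb of a protein-coding start, the widest was 500 bp at Pou5f1 and 6289 bp at Sox2, against 5397 bp in the Nanog window, 1400 bp in that of Esrrb and 7585 bp in that of Klf4. Pou5f1 and Esrrb thus had no such peak of at least 3 kb. The 7226-bp peak at Esrrb reached the start of that gene and is left out of these values, although its midpoint was over 3 kb away.

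Wide domains can also be split into several peaks, so peaks were joined across gaps of up to 12500 bp, a distance often used to stitch enhancers. Peaks 1 to 4 of Sox2 then formed 1 region, chr3:34647780-34671514, which spanned 23735 bp with 12451 bp in peaks. It ranked 34 of 8554 regions by bases in peaks, and 99.6% held less. Peaks 3 and 4 of Pou5f1 joined to 13582 bp with 7093 bp in peaks, which ranked 155. This region included a start of Tcf19 and ended 233 bp before the nearest start of Cchcr1. The far Sox2 peak stayed alone and ranked 203, with 97.6% of regions holding less. Of all regions, 19.7% held several peaks. With gaps of up to 5 kb, only Sox2 peaks 2 to 4 joined, over 7177 bp with 2542 bp in peaks.

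Motifs for the factors that act at these loci were then searched on both strands over the whole of each peak. The letters were ATTTGCAT for the octamer bound by POU factors, CATTGTT for SOX factors, TCAAGGTCA for ESRRB, GGGNGTGG for KLF factors, TTCCNGGAA for STAT3, which acts downstream of LIF, and TGANTCA for AP-1. The composite SOX-octamer motif had 12 fixed letters, made of CNTTGT, 1 free base and ATGCNAAT, and its SOX and POU parts overlap the letters of the SOX and octamer motifs. CTCF was searched with a pattern of 8 fixed letters. A match describes the reference sequence and does not show that a factor was bound.

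The composite was found only with mismatches. No peak of either window held it in full, and only 2 of the 11106 peaks did. With up to 1 mismatch it occurred in 1 of 5 Sox2 peaks and 0 of 5 Pou5f1 peaks, against 0.531% of all peaks (59 peaks) and 2.77% of those at least 3 kb wide. That match lay at chr3:34654049-34654063 in peak 1, centred 3651 bp downstream of the Sox2 start, in the first sequence printed above. A STAT3 and a KLF match followed it within the same 300 bases. With up to 2 mismatches, 1 of 5 peaks at each gene held it, against 7.29% of all peaks and 24.8% of wide ones. Peak 3 of Pou5f1 had 2 such matches, at 1962 bp upstream and 1408 bp downstream of the start, and the upstream one is in the printed stretch. Peak 1 of Sox2 had a second one at 4177 bp.

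The exact octamer was found in 2 of 5 Sox2 peaks and in 0 of 5 Pou5f1 peaks, against 5.12% of all peaks. The Sox2 matches lay 5885 bp downstream of the start, in peak 1, and 17907 bp downstream, in peak 3, whose midpoint was only 17856 bp from the start. Of the wide peaks 19.0% held an octamer, so the match in peak 1 is to be read beside that share, while peak 3 is 588 bp wide. The SOX letters occurred in 2 of 5 Sox2 peaks and 1 of 5 Pou5f1 peaks, against 13.1% of all peaks and 37.9% of wide ones. Peak 1 of Sox2 had 3 of them, at 2379 and 867 bp upstream and 1464 bp downstream of the start. That number was reached by 0.225% of all peaks and 2.11% of wide ones, but a wider peak has more room for matches and this one ranked 6 by width. Per kb, it held 0.303 SOX matches, against 0.115 over all peaks and 0.122 over wide ones.

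**Figure D5:**
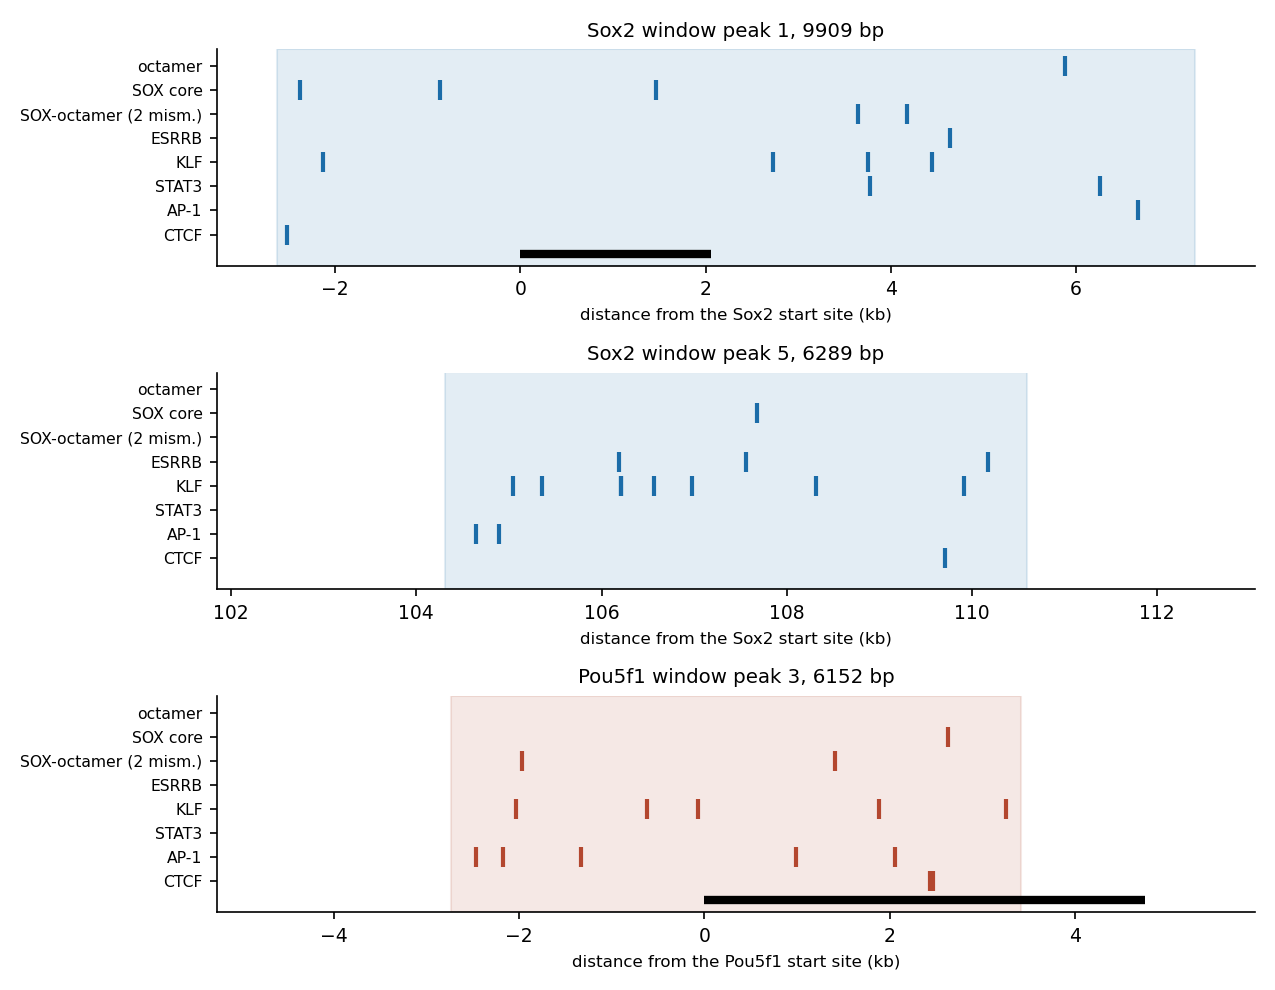
Positions of motif matches on either strand (ticks, 1 row per motif) in the 3 peaks at least 3 kb wide, Sox2 peak 1 (top), Sox2 peak 5 (middle) and Pou5f1 peak 3 (bottom), against the distance from the gene start in kb, with the peak shaded and the gene as a black bar. The SOX-octamer row allows up to 2 mismatches. Sox2 peak 5 holds 3 ESRRB and 8 KLF matches, and Pou5f1 peak 3 holds 5 AP-1 matches and no octamer or ESRRB match.

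The far Sox2 peak held several ESRRB matches, a point singled out after the values were seen. The ESRRB letters occurred in 2 of 5 Sox2 peaks and 1 of 5 Pou5f1 peaks, against 3.61% of all peaks and 14.2% of wide ones. Peak 5 of Sox2 held 3 of them, at 106185, 107559 and 110173 bp downstream of the start, and only 4 of all 11106 peaks (0.0360%) held as many, or 0.527% of wide peaks. The middle one is in the printed stretch of the peak, shortly before a SOX match at 107674 bp. Peak 1 of Sox2 had 1 ESRRB match at 4643 bp, and the Pou5f1 one was in the narrow peak 2, 20086 bp upstream of the start. Per kb of peak, ESRRB matches numbered 0.213 at Sox2 and 0.120 at Pou5f1. These rates rest on 4 matches and 1 match, and 3 of the 4 are those singled out in peak 5. The rate was 0.0301 over all peaks, 0.0410 over wide ones and 0.0449 over distal ones.

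KLF letters, the commonest of those searched, occurred in 3 of 5 Sox2 peaks and 2 of 5 Pou5f1 peaks, against 37.9% of all peaks. Among wide peaks 86.8% held KLF letters. Peak 5 of Sox2 had 8 of them, a number reached by 0.207% of all peaks and by 2.50% of wide ones. Per kb, it held 1.27 KLF matches, against 0.510 over all peaks and 0.579 over wide ones. STAT3 letters occurred in 1 of 5 Sox2 peaks, peak 1, at 3775 and 6261 bp downstream of the start, and in 0 of 5 Pou5f1 peaks. Their share was 5.13% among all peaks and 17.1% among wide ones. AP-1 letters occurred in 3 of 5 Sox2 peaks and 1 of 5 Pou5f1 peaks, against 24.7% of all peaks and 61.7% of wide ones. Per kb of peak, AP-1 matches numbered 0.213 at Sox2 and 0.600 at Pou5f1. The rate was 0.253 over all peaks, 0.265 over wide ones and 0.349 over distal ones, so Sox2 was below each. Peak 3 of Pou5f1 held 5 of the AP-1 matches, and 2.64% of wide peaks held 5 or more. CTCF matches occurred in 2 of 5 peaks at each gene, against 8.57% of all peaks and 29.0% of wide ones. At Sox2 they lay in the 2 wide peaks, 2513 bp upstream and 109704 bp downstream of the start, and at Pou5f1 in peak 3, at 2434 and 2473 bp, and in peak 5. Peak 4 of Sox2 and peak 1 of Pou5f1 held no exact match to any motif searched.

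In the printed promoters the motifs were nearly absent, and each motif is missing from most promoters of that length. The Sox2 promoter held none of them and the Pou5f1 promoter held 1 KLF match, 63 bp before the GENCODE start on the minus strand. Of 32851 RefSeq promoters of the same length, 17.6% held KLF letters, 7.81% AP-1, 3.78% SOX, 2.43% CTCF, 1.94% the composite with up to 2 mismatches, 1.74% the octamer, 1.15% STAT3 and 0.423% ESRRB. In the central 300 bases of all peaks the shares were 12.9% for KLF, 6.92% for AP-1, 3.10% for SOX, 1.95% for CTCF, 1.54% for the composite, 1.08% for the octamer, 1.23% for STAT3 and 0.756% for ESRRB.

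The members also differed in base composition. The CpG ratio, the number of CpG dinucleotides relative to that given by base content, was 0.643 in Sox2 peak 1 and 0.243 in Pou5f1 peak 3, on either side of the median of 0.510 over all peaks. The 2 peaks at the genes were thus unlike in CpG content, although GC content was 48.9% and 53.2%, both near the median of 51.4%. The far Sox2 peak had a ratio of 0.266, near the median of 0.261 over distal peaks. It was also rich in repeats, which made up 36.4% of its bases against a distal median of 14.3%, and 93.6% of all peaks had less. Peak 2 of Sox2 (0.630) and peak 4 of Pou5f1 (0.618), both at annotated starts, had ratios close to that of the peak at Sox2, while the lowest of the 10 was 0.0623 in Pou5f1 peak 1.

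Known direct targets of SOX2 and POU5F1 mostly had a peak at their start. A peak base within 1 kb of a start was found for 7 of 8, namely Fgf4, Utf1, Nanog, Fbxo15, Zfp42, Tdgf1 and Spp1 (87.5%, Wilson 95% interval 52.9 to 97.8%, which covers counting error only). Across all protein-coding genes the share was 35.7%. For Lefty1, a Nodal antagonist, the nearest base of a peak was 4734 bp away. A peak of at least 3 kb lay there for 5 of the 8, against 3.35% of all genes. The widest were 6689 bp at Tdgf1, a Nodal co-receptor, and 5310 bp at Fgf4, a growth factor whose enhancer holds a SOX-octamer element, both below the 9909 bp at Sox2. This list was chosen with results of these data known and is no independent evidence.

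The paralogs of both factors seldom had such a peak. Of 6 other SOX genes, Sox15, a gene active in mESCs, had one (1955 bp wide), while for Sox1, Sox3, Sox17, Sox18 and Sox21 the nearest base of a peak was 8193 bp (Sox18) to 2853549 bp (Sox3) away. Of 8 other POU genes, the widely expressed Pou2f1 had one (2277 bp wide), and for the other 7 the distance ran from 12112 bp (Pou2f2) to 1800378 bp (Pou3f4). The Wilson 95% intervals of these shares, 3.01 to 56.4% and 2.24 to 47.1%, include the 35.7% of all genes.

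As a check on the labelled cell type, 6 of 6 stem cell genes (Sox2, Pou5f1, Nanog, Esrrb, Klf4 and Zfp42) had a peak base at most 1 kb from a start. For 5 of them that peak was at least 3 kb wide. Across all protein-coding genes these shares were 35.7% and 3.35%. Sox2 and Pou5f1 were themselves the genes examined, so they add no independent check. Nanog and Zfp42 were already counted among the targets above, and Nanog, Esrrb and Klf4 were the compared loci. The list was chosen with earlier results of these data known. Of 6 fibroblast genes that feeder cells would express (Col1a1, Col1a2, Col3a1, Thy1, Twist2 and Pdgfrb), 0 had a peak base that close. The Wilson 95% interval allows a share of up to 39.0%, which includes the 35.7% of all genes, so this count does not set them apart. A peak is not a level of expression, and the share of feeder DNA in the libraries was not measured.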

How the data were processed

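H3K56ac ChIP-seq of Scramble and Sirt6KD V6.5 mESCs gave 4 ChIP and 2 input libraries, grouped by their titles. Per the methods and labels, the authors trimmed single-end reads (75 bases in the methods, 80 in the list of libraries) with Trim Galore, aligned them to mm10 with Bowtie keeping reads with 1 location, removed duplicates with Picard, and took the MACS2 peaks outside the ENCODE blacklist, merged where they overlapped. FastQC, SAMtools and deepTools are listed too. The deposited file held positions only, and its deposited score was 0 for every peak, so no depth, library or group enters any value. Starts counted from 0 are printed from 1.

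Peaks within 150 kb of Sox2 and Pou5f1 (GENCODE M21) were compared with all 11106 peaks. Their windows were compared with those of 21938 protein-coding genes, each the gene body plus 150 kb to each side, so longer genes had longer windows. The files allow no test between groups, so no p-value is given. Motifs were letter patterns on GRCm38, exact except where mismatches are given, and repeats were its soft-masked bases. Genes named were Sox2, Pou5f1, window genes with a peak base within 1 kb of a start, genes that hold or flank a peak, Nanog, Esrrb, Klf4 and the lists. The members and lists were chosen with earlier results of these data known. Alternatives changed the window, the width minimum, the joining distance, the gene set and the motif search. Calculations used Python 3.11.15, numpy 2.4.6, pandas 2.3.3, scipy 1.17.1, numba 0.67.0 and matplotlib 3.10.9, and were tested on simulated data.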

Additional observations from a re-analysis of the deposited data

How the results depend on the processing

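Of 51 alternatives to 15 results, 22 left the value close and 29 moved it. With 250 kb flanks the Sox2 window was covered at 3.73% and the Pou5f1 window at 2.21%, with 9 Pou5f1 peaks, and with 100 kb flanks the Pou5f1 cover was 3.83%. With peaks of at least 500 bp only, Pou5f1 kept 3 peaks and 2.49% cover. The share of genes with fewer peaks, 67.4% for both, became 45.8% among genes with a peak within 1 kb of a start, 66.0% among autosomal genes and 69.2% with 100 kb flanks. For Sox2 it became 53.7% with 250 kb flanks, 73.3% with the 500 bp minimum and 96.6% by covered bases, and for Pou5f1 75.9%, 53.9% and 79.9%. After joining peaks across gaps of up to 5 kb or 12500 bp, the region at the gene was wider than 98.7% or 98.4% of regions for Sox2 and 95.2% or 94.3% for Pou5f1. Octamer counts among Sox2 peaks were 1 in the 400 bp around the midpoint, 1 in 1000 bp and 5 with 1 mismatch, and among Pou5f1 peaks 1 in 1000 bp and 2 with 1 mismatch. With stretches of 80 bases, chosen after seeing the data, 3.39% upstream of the Sox2 start and 43.3% upstream of the Pou5f1 start were shared. The Sox2 control region interval held a single peak under every interval tried. Each of these intervals contained the whole of peak 5 and reached no other peak, so this count could not change. No paired analysis was possible because the peaks of all libraries were deposited as 1 set of positions. For the same reason no replicate could be left out, and a stricter score could not be tried because the score was constant. Whether a peak came from Scramble or Sirt6KD cells, how strong it was and how deep each library was could not be read from these positions.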
